A study of Saccharomyces cerevisiae with 328 samples.

Results

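Daughter cell separation genes were represented by 5 genes, CTS1, DSE1, DSE2, EGT2 and SCW11, chosen by name from the 4922 genes with any value in the deposited tables. Their mRNA was followed across 328 deletion strains of the budding yeast Saccharomyces cerevisiae, each lacking 1 gene and each profiled by sequencing of 1 polyA RNA library. Every value is a log2 ratio of the deletion strain to 1 wild type strain, so that 0 means the wild type level and 1 a doubling. Cells were sampled in exponential growth. No source used here gives the strain background, the mating type, the medium or the depth of any library. All 5 genes had values in at least 80% of the strains, as did 4499 genes in all. CTS1, DSE2 and EGT2 had a value in every strain, DSE1 in 321 and SCW11 in 325. DSE1 was missing in the YCL026C, SPT3, BUB1, STB5, MNR2, PSR1 and CSF1 strains and SCW11 in the ASF1, YLR338W and MVP1 strains, all of the first table.

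The strains shown singly were labelled as lacking SWI5 (YDR146C), SIC1 (YLR079W), ELM1 (YKL048C) and DSE4 (YNR067C). A further 19 classes of 3 to 18 strains were formed by the function of the deleted gene, and the remaining strains, called other deletions, served as their reference. Strains of a class lack different reading frames, so their spread holds both the effects of these deletions and the error of 1 library each. YLR235C, numbered next to TOP3 (YLR234W), stands with it in the replication fork class. Likewise YLR338W stands with VRP1 (YLR337C) in the actin and polarity class. Whether either pair affects the same gene was not tested, so these strains may not be independent.

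In budding yeast the mother and the daughter stay joined by a chitinous septum after cytokinesis, and the daughter then dissolves it from its own side. Genes for the enzymes that do this are known to be switched on at the end of mitosis and in early G1, the interval in which the zinc finger transcription factor Swi5 also enters the nucleus and turns on its own targets. CTS1 encodes the secreted endochitinase that digests the septum, and cells without it stay in clumps. DSE2 and EGT2 encode wall proteins needed for normal separation, SCW11 a glucanase-like wall protein, and DSE1 a protein of the daughter cell that takes part in wall metabolism and separation.

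Printed here, upstream of the start codons, are the stretches densest in matches to the core that Swi5 zinc fingers are known to bind. This core, CCAGC, occurs upstream of all 5 genes, and at least once in 55.5% of 5997 promoters of 800 bases. Each stretch has 180 bases, is written 5′ to 3′ on the strand of its gene, and comes from the RefSeq R64 genome. Capitals mark CCAGC or its complement GCTGG. CTS1 lies on the minus strand of chromosome XII, and its stretch is at chrXII:710591-710770. DSE1 is on the minus strand, with its stretch at chrV:409394-409573. DSE2 is on the plus strand, at chrVIII:385081-385260, and EGT2 on the plus strand, at chrXIV:23694-23873. SCW11 is on the minus strand, at chrVII:443410-443589.
CTS1: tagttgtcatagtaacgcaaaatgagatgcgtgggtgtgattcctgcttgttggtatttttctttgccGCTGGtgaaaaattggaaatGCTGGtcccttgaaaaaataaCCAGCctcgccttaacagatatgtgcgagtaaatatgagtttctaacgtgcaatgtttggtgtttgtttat
DSE1: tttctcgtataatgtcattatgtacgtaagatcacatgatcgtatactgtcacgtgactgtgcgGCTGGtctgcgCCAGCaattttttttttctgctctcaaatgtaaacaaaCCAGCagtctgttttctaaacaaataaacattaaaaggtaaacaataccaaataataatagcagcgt
DSE2: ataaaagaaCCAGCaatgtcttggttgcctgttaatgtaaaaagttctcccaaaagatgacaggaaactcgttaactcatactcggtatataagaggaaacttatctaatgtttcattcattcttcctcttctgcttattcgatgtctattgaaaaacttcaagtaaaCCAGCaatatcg
EGT2: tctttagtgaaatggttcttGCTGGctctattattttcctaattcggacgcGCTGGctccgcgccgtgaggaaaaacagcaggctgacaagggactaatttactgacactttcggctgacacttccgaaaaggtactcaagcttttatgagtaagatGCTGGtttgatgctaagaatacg
SCW11: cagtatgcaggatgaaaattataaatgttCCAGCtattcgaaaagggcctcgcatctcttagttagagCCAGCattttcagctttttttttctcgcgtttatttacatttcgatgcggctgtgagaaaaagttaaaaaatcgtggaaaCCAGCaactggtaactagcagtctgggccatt

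In the 800 bases before the start codon, on both strands, the longer form ACCAGC (which contains CCAGC) occurred 3 times at CTS1, 3 times at DSE1, 3 times at DSE2, 2 times at EGT2 and once at SCW11. Of 5997 promoters of this length, 0.350% held at least 3 copies, 3.08% at least 2 and 23.6% at least 1. The 3 copies at CTS1 lay close together, at 566, 546 and 526 bases before the start codon, whereas those at DSE2 were spread over 639, 421 and 262 bases. The shorter CCAGC occurred 6 times at DSE1, 5 times at EGT2 and 5 times at SCW11, of which 4 lay before the next gene, CWH41, against at least 5 copies in 0.634% of all promoters. CTS1 and DSE2 had 3 copies each, and 6.69% of promoters had at least 3. These matches describe letters and were not linked to binding, which was not measured.

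**Figure D1:**
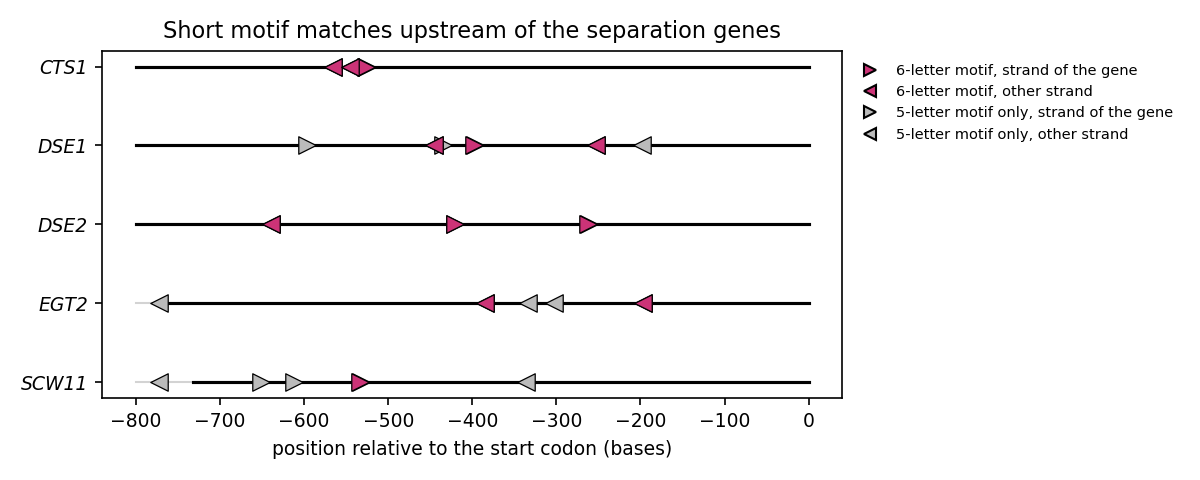
Positions of the 6-letter motif ACCAGC (pink) and of further 5-letter CCAGC matches (grey) in the 800 bases before the start codon of each gene; triangles point right on the strand of the gene and left on the other strand, and the black line stops where the next annotated gene begins. CTS1 has its 3 copies within one short stretch, and SCW11 has 1 copy of the longer form.

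The 5 genes differed widely in how much they varied between strains. DSE2 (YHR143W, chromosome VIII, 385510 to 386487 in R64) ran from -2.44 to 3.10 with a median of 0.23, and its SD of 1.17 ranked 10 of the 4499 genes, whose median SD was 0.473. CTS1 (YLR286C, chromosome XII, 708448 to 710136) ran from -1.56 to 2.53 with a median of 0.21 and an SD of 0.818, rank 69. DSE2 and CTS1 thus held the widest ranges of the 5. DSE1 (YER124C, chromosome V, 407342 to 409063) ran from -1.79 to 1.52 around a median of 0.00 (SD 0.686). SCW11 (YGL028C, chromosome VII, 441281 to 442909) ran from -2.30 to 1.07 with a median of -0.26 (SD 0.452), and EGT2 (YNL327W, chromosome XIV, 24048 to 27173) from -1.40 to 1.22 with a median of 0.17 (SD 0.423). The spread of EGT2 and SCW11 was below that of the median gene. At least a doubling over wild type was seen for DSE2 in 96 strains and for CTS1 in 73, but for DSE1 in 11, EGT2 in 5 and SCW11 in 1.

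Most of the variation of DSE2 and CTS1 followed a division of the libraries that the labels do not name. A Gaussian mixture on principal components of genes with a value in every strain, without the 5 genes, gave 4 library groups, A with 80 strains, B with 73, C with 96 and D with 79. They took 83.1% of the variance of DSE2, 70.3% of that of CTS1, 41.6% for DSE1, 20.04% for SCW11 and 16.6% for EGT2, against 25.2% for the median gene. Whether they reflect plates, growth or something else cannot be told apart, and a mixture of 5 groups had a lower Bayesian information criterion (6758 against 6837). Values relative to the library group are therefore given beside the values as deposited.

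DSE2 in the 96 strains of library group C had a lowest value of 1.10, a median of 1.97 and a highest of 3.10, against -2.44, -0.09 and 0.92 in the other 232 strains. Not a single strain overlapped, a pattern found for 8 of 4499 genes (0.178%), among them the chromatin protein gene NHP6A; 0.0222% of genes lay wholly below in group C. CTS1 in library group C had a lowest value of 0.61, a median of 1.26 and a highest of 2.53, against -1.56, -0.04 and 0.93 in the other strains. Here 76 of the 96 strains lay above all the others, and the difference of medians was 1.30 for CTS1 and 2.06 for DSE2, ranks 37 and 4 of the 4499 genes. A median at least 1 higher in group C was found for 1.67% of genes. DSE1 had a median of 0.37 in group C and -0.21 in the other strains, and the ranges overlapped. EGT2 went the other way, with a median of -0.06 in group C and 0.29 in the other strains, and SCW11 had -0.33 in group C and -0.23 in the other strains. The groups were found from the values, so these differences are descriptions with no test. In bulk cultures, a changed share of cells at the stage that expresses these genes and changed mRNA per cell cannot be told apart.

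The other library groups ordered the genes in their own ways. Library group D had the lowest medians of CTS1 (-0.38), DSE1 (-0.63) and DSE2 (-0.78), but not of EGT2 (0.27), and its median of SCW11 (-0.37) was close to that of B (-0.37). Library group A had the highest medians of EGT2 (0.39) and SCW11 (0.05). The SDs within groups ran from 0.30 for EGT2 in group C to 0.59 for DSE1 in group D, so the medians of A, B and D for EGT2 and those of B, C and D for SCW11 lay closer together than the strains within a group. The mean of 6 a-cell marker genes had medians of -0.14 in group C and 0.04, 0.06 and -0.17 in groups A, B and D, and the median of strain medians over all genes was -0.22 in group C, against -0.16, -0.11 and 0.03. The part of these in the differences was not tested, and the alpha-cell markers were not analysed here. The second table, with 73 strains, had medians 0.40 higher for DSE2 and 0.35 higher for CTS1 than the first, with 255. It held 32 strains of group C, and the first held 64.

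**Figure D2:**
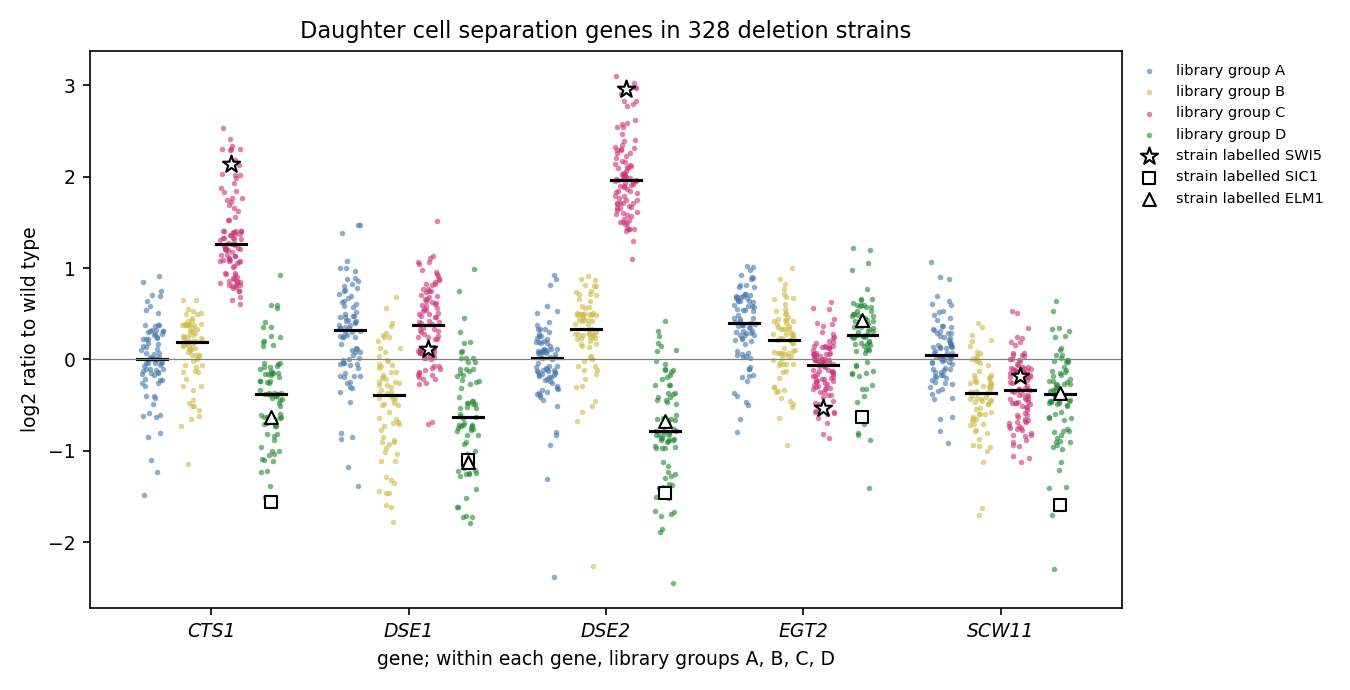
log2 ratio to wild type (y axis) of the 5 genes in each strain, by library group A to D, with black bars at the group medians; the strains labelled SWI5, SIC1 and ELM1 are drawn as a star, a square and a triangle. All strains of group C lie above all others for DSE2, and the SIC1 strain is the lowest of all for CTS1.

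SWI5 encodes a transcription factor of late mitosis and early G1, and its own mRNA was at -1.94 in the SWI5 strain, at rank 3 from the lowest of 327. The strain lay in library group C. CTS1 was at 2.14 and DSE2 at 2.96 in the SWI5 strain, against medians of 0.15 and 0.17 in the other strains of the same table. DSE1 was at 0.11, SCW11 at -0.18 and EGT2 at -0.53. Thus 2 of the 5 genes were at least 1 higher than the table median, against 3.51% of 4410 genes, and none was at least 1 lower, against 7.8%. Relative to the 95 other strains of library group C the excess was 0.88 for CTS1, with 87 strains below it, and 0.99 for DSE2, with 91 below. No gene of the 5 then reached a difference of 1, against 0.59% of genes higher and 3.27% lower. With 5 library groups the excess was 0.155 for CTS1 and 0.41 for DSE2. Against the library group EGT2 differed by -0.48, with 9 of 95 strains lower, DSE1 by -0.27 and SCW11 by 0.15. With 1 library there is no replicate check, and no test was made.

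Other genes known for expression at the end of mitosis and in early G1, called M/G1 genes here, lay mostly below the medians in the same strain. Of 14 such genes, 13 were below the table median and 5 by at least 1 (background 7.8%), with a median difference of -0.51, against -0.25 over all genes. The differences were -2.08 for ASH1, the daughter-specific repressor of mating type switching, -1.13 for DSE3, a bud neck protein, -1.03 for PCL9, a cyclin of the kinase Pho85, -1.01 for NIS1, a bud neck protein, and -1.0035 for SIC1. Relative to the library group 12 of 14 were lower, with a median of -0.46 against -0.12 over all genes, and 3 passed 1 (background 3.27%). These were PIR1, a wall protein, at -2.03, ASH1 at -1.54 and DSE3 at -1.08. SIC1 and PIR1 were named after their values had been seen. DSE4, which encodes the glucanase secreted by daughters, differed by -0.48 from the library group median, as EGT2 did. MCM1, a subunit of the factor that drives SWI5 transcription, differed from the table median by 1.81 and HYM1, of the Cbk1 pathway, by -1.01. FKS1, a glucan synthase subunit, was 1.85 above the table median but 0.52 above that of the library group. Of the remaining lists, the genes past 1 by table were CDC47, an MCM helicase subunit (1.08), CDC21, the thymidylate synthase (-1.29), MFA2, an a-factor gene (1.46), STE6, the a-factor exporter (-1.23), and STE18, a pheromone response subunit (-1.68). By library group they were at 0.76, -0.88, 0.99, -1.04 and -0.92, so that STE6 was past 1 and the others were not.

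SIC1 encodes the inhibitor of the cyclin-dependent kinase that helps cells to leave mitosis and is itself a Swi5 target, and its own mRNA was at -2.51 in the SIC1 strain, the lowest of 328. All 5 separation genes were below their table medians in that strain. CTS1 was at -1.56, the lowest of all 328 strains, SCW11 at -1.59, rank 5 from the lowest of 325, DSE2 at -1.46, DSE1 at -1.10 and EGT2 at -0.63. Against the table medians the differences were -1.72, -1.35, -1.63, -1.09 and -0.83. So 4 of the 5 genes were at least 1 lower, against 1.93% of 4448 genes. The strain lay in library group D, which had the lowest medians of CTS1, DSE1 and DSE2. Relative to the 77 other strains of that group the differences were -1.18 for CTS1, with no strain below it, -1.23 for SCW11, -0.90 for EGT2, -0.68 for DSE2 and -0.47 for DSE1, so that 2 of the 5 passed 1, against 1.98% of genes.

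HYM1 was 1.72 above the table median in the SIC1 strain. Of the 14 other M/G1 genes, only SIC1 itself was at least 1 lower (background 1.93%), 7 were below the table median and 11 below that of the library group. Their median difference was -0.09 by table, against 0.14 over all genes, and -0.30 by library group, against -0.01. Against the library group median ASH1 differed by -0.93 and PCL2, a Pho85 cyclin, by -0.48, whereas CYK3, a cytokinesis protein, differed by 0.43. These last genes were named after their values had been seen.

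ELM1 encodes a bud neck kinase of the morphogenesis checkpoint, and cells without it are known to be elongated. The library labelled ELM1 did not have a lowered ELM1 mRNA: it was at 0.38, rank 208 from the lowest of 301 strains. CTS1 was at -0.63, DSE1 at -1.12, DSE2 at -0.68, EGT2 at 0.44 and SCW11 at -0.37 in the library labelled ELM1. DSE1 was at least 1 below its table median, 1 of 5 genes, against 1.35% of 4457 genes. Relative to library group D the differences were -0.25, -0.50, 0.11, 0.17 and -0.00, none of them past 1 (background 0.987% lower and 0.202% higher). The library labelled ELM1 lay among the other strains of its group for all 5 genes. Among the other M/G1 genes none was at least 1 below the table median. By library group RME1, a repressor of meiosis, differed by -1.20. CHS1, the chitin synthase that repairs the septum during separation, differed by -1.04 from its table median and by -0.82 from that of the library group. GPA1, the G protein subunit of the pheromone response counted among the haploid markers, was 1.01 above the table median and 0.28 above that of the library group.

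**Figure D3:**
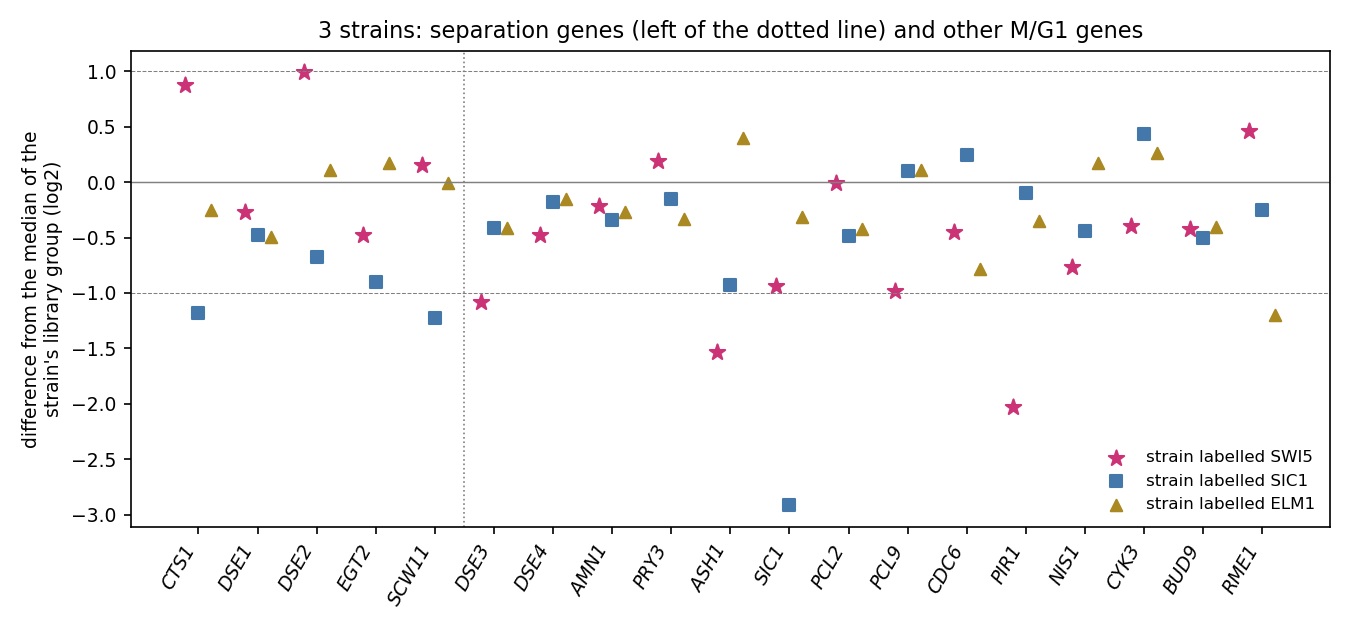
Difference from the median of the other strains of the same library group (log2, y axis) for the 5 separation genes, left of the dotted line, and for 14 other M/G1 genes in the strains labelled SWI5 (stars), SIC1 (squares) and ELM1 (triangles); dashed lines mark 1 and -1. In the SWI5 strain CTS1 and DSE2 stand above 0 while ASH1, DSE3 and PIR1 pass -1, and in the SIC1 strain all 5 separation genes stand below 0.

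The strain labelled DSE4, in library group B, had its own mRNA at -0.85, rank 5 from the lowest of 328. CTS1 was at 0.38, DSE1 at -0.10, DSE2 at 0.24, EGT2 at 0.66 and SCW11 at -0.04 there. None differed by 1 from the median of its library group, and EGT2 was 0.45 above it, with 7 of 72 strains higher.

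In 3 strains the deleted reading frame lies near one of the genes. The RPS30A strain, whose deletion is 2 genes from CTS1, had CTS1 at 1.08, against a library group median of 1.26. The LEM3 strain, 3 genes from EGT2, had EGT2 at 0.56, against 0.22. The strain lacking YGL024W, which lies 4 rows from SCW11 in the table, had SCW11 at -1.70, rank 3 from the lowest of 325, against -0.35 in its library group. This strain was also low in the other 4 genes, on other chromosomes: DSE2 was at -2.44, the lowest of all strains, EGT2 at -0.82, CTS1 at -1.11 and DSE1 at -1.19. PGD1, a Mediator subunit in the row next to YGL024W, was at 0.65 there, against 0.50 in its library group. This mRNA level does not show whether the deletion alters PGD1, which was not tested. The YGL024W strain was counted among the other deletions, the reference, and not in the Mediator class.

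The strains with the lowest values of each gene overlapped in part. For DSE2 they were YGL024W (-2.44), SRB8 (-2.38), ASF1 (-2.26), RAD52 (-1.89) and CSF1 (-1.86). For CTS1 they were SIC1 (-1.56), CSF1 (-1.50), RFU1 (-1.49), SPT3 (-1.39) and SRB8 (-1.23). For SCW11 they were UBP3 (-2.30), RAD27 (-1.71), YGL024W (-1.70), ASH1 (-1.63) and SIC1 (-1.59). SRB8 encodes a subunit of the Mediator kinase module, ASF1 a histone chaperone, SPT3 a SAGA subunit and UBP3 a ubiquitin protease. For DSE1 they were ELP6 (-1.79), ROM2 (-1.77), RAD50 (-1.73), CSE2 (-1.72) and UBP3 (-1.71), and for EGT2 SPT3 (-1.40), RPL16B (-0.93), GSH1 (-0.89), DAL81 (-0.85) and YGL024W (-0.82). Measured from the library group median, DSE2 was lowest in the ASF1 strain (-2.60), then SRB8 (-2.39) and YGL024W (-1.66). These strains lay in groups B, A and D.

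At the other end, the highest values of CTS1 were in the RPS30B (2.53), URE2 (2.41), KTI12 (2.34), YNL120C (2.31) and RPS11A (2.30) strains, and those of DSE2 in the URE2 (3.10), RPS29A (3.02), RPS11A (2.98), KTI12 (2.97) and SWI5 (2.96) strains. All of these lay in library group C. DSE1 was highest in the KTI12 (1.52), VPS24 (1.48), LRP1 (1.47), CTK1 (1.39) and UBC4 (1.13) strains, and SCW11 in the ASC1 (1.07), RFU1 (0.90), STE24 (0.88), LRP1 (0.70) and PHO5 (0.64) strains. RFU1 was thus among the highest for SCW11 and among the lowest for CTS1. EGT2 was highest in the MNR2 (1.22), RCY1 (1.20), ILM1 (1.06), ASC1 (1.02) and RPO41 (1.02) strains. In the first 3 of these the median gene of chromosome XIV, which carries EGT2, was raised by 0.79, 0.86 and 0.83, close to the excess of EGT2 over its library group (0.96, 0.93 and 0.79). DSE2 in the KRE28 strain had an excess of 1.21 over its library group, and there the median gene of its chromosome VIII was raised by 0.69.

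All 5 genes were at least 0.5 below the library group medians in 4 strains, YGL024W, SAC1, ELP6 and RAD50, and at least 0.5 above in 2, LRP1 and VPS38. In the SAC1 strain, lacking a phosphoinositide phosphatase, the differences ran from -1.13 for DSE1 to -0.61 for CTS1. In the LRP1 strain, lacking an exosome cofactor, they ran from 0.53 for EGT2 to 1.14 for DSE1. A further 8 strains had 4 genes at least 0.5 below, RTT109 and SIC1 among them, and 10 had 4 genes at least 0.5 above.

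Across strains CTS1 and DSE2 moved nearly together, while EGT2 did not follow them until the library groups were taken into account. With the means of the 2 tables subtracted, Pearson's r was 0.95 for CTS1 and DSE2 (Spearman's rho 0.93, n = 328 strains). It was 0.56 for CTS1 and DSE1, 0.43 for DSE1 and SCW11, and 0.42 for EGT2 and SCW11. EGT2 had r of -0.02 with CTS1 and -0.13 with DSE2. With the means of the library groups subtracted, all 10 pairs were positive, with a median of 0.40 against 0.30 before, and EGT2 had r of 0.54 with CTS1 and 0.46 with DSE2. CTS1 and DSE2 had 0.85. Within the single groups the median r of the 10 pairs was 0.37 in A, 0.19 in B, 0.48 in C and 0.52 in D, and the only negative pair was DSE2 and SCW11 in B (-0.01). These correlations are descriptions: all strains share 1 wild type strain as the reference, and depth was not given.

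**Figure D4:**
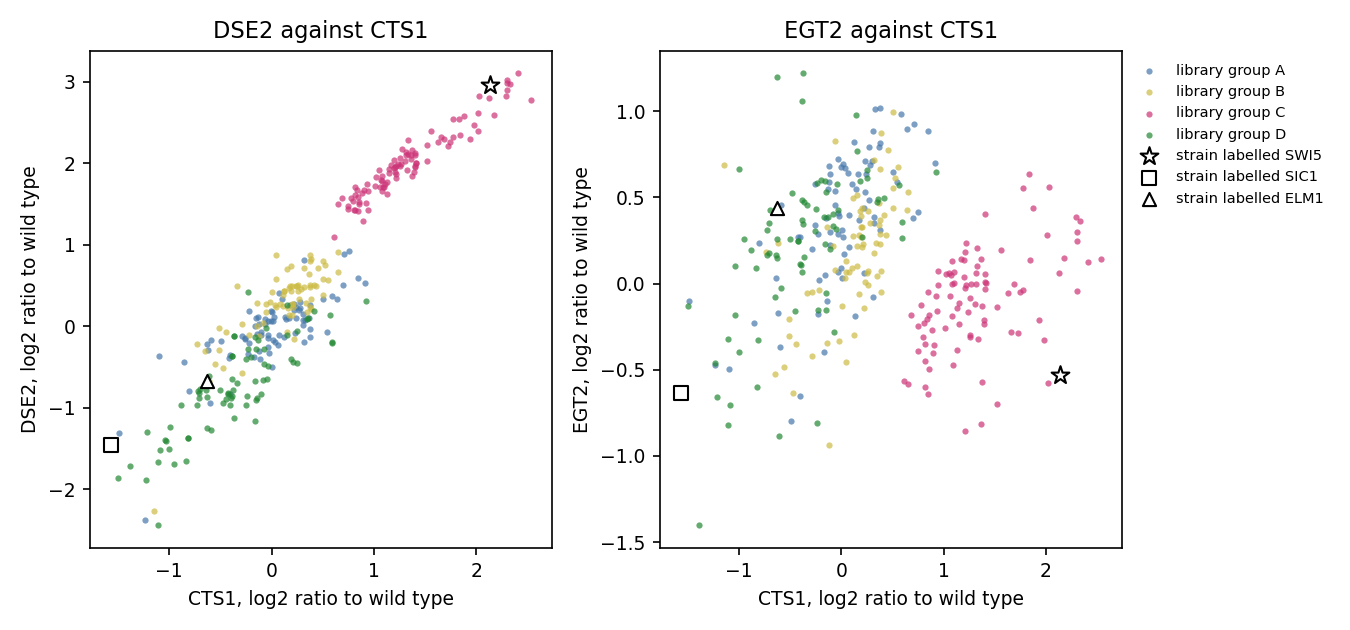
log2 ratio to wild type of DSE2 (left) and EGT2 (right) against CTS1, 1 point per strain, coloured by library group, with the strains labelled SWI5, SIC1 and ELM1 drawn as a star, a square and a triangle. DSE2 follows CTS1 through all groups, while EGT2 rises with CTS1 inside each group and the group C strains are displaced to the right.

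The genes most like each member were searched over all 4498 others. For CTS1 the first was YLR285C-A (r 0.998), a short reading frame just downstream on the same strand, whose reads may not be separable from those of CTS1, then DSE2 and NHP6A (0.88). DSE2 had YLR285C-A, CTS1 and NHP6A (0.92) as its nearest. For DSE1 they were PIR1 (0.62), the plasma membrane proton pump gene PMA1 (0.62) and the unfolded protein response gene HAC1 (0.61). For EGT2 they were ASH1 (0.53), the translation initiation factor gene FUN12 (0.51) and AMN1 (0.51), and for SCW11 AMN1 (0.56), DSE1 and EGT2. AMN1, which turns off mitotic exit in daughters, and ASH1 are both among the other M/G1 genes. The median absolute r over all genes was 0.29 for CTS1, 0.31 for DSE2, 0.21 for DSE1 and 0.10 for EGT2 and for SCW11.

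With library group means subtracted the nearest genes changed. DSE1 was then most like CTS1 (0.40), YLR285C-A and SCW11 (0.38), SCW11 most like AMN1 (0.49) and CTS1 (0.41), and EGT2 most like CCW12 (0.58), an abundant wall mannoprotein, SUN4 (0.58), a septum protein, and CTS1. For CTS1 the next gene after DSE2 was SUN4 (0.66) and for DSE2 it was AMN1 (0.60). By likeness to the mean of the 5 standardised genes, the first 10 were YLR285C-A (0.85), AMN1 (0.66), SUN4 (0.65), CCW12 (0.55), PIR1 (0.49), TEF1 (0.49), PIL1 (0.47), HYP2 (0.46), TOS6 (0.46) and RPP2A (0.45). With table means subtracted they were instead YLR285C-A (0.78), PIR1 (0.70), PMA1 (0.69), RPL16B (0.68), CDC19 (0.68), RPL2B (0.67), PMP3 (0.65), CCW12 (0.64), ABF1 (0.63) and NOG1 (0.63).

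The lists of related genes were then set beside the 5, with library group means subtracted. Of 14 other M/G1 genes, 14 had a positive r with CTS1, DSE1, DSE2 and EGT2 and 13 with SCW11, with median r of 0.22, 0.11, 0.21, 0.26 and 0.15. The median over all genes lay between -0.03 and -0.01 for each. The mRNA of SWI5 had r of -0.24 with CTS1, -0.25 with DSE2, -0.07 with EGT2, -0.01 with DSE1 and 0.01 with SCW11. Of 12 septum and wall genes 9 were positive with CTS1 (median 0.16). The 9 mitotic genes driven with CLB2 had medians between -0.07 and 0.01, the 9 G1/S genes between -0.01 and 0.04, the 7 replication origin genes between 0.03 and 0.10, and the 8 histone genes between -0.04 and 0.14. The 6 a-cell markers had medians between 0.03 with DSE1 and 0.19 with CTS1 and were all positive with EGT2 and with SCW11, and the 6 haploid markers had medians between -0.01 and 0.09. These counts describe genes that also correlate among themselves.

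Between classes of deletions, none of the 95 pairs of class and gene passed an adjusted p of 0.05 by limma with the table as a term and Benjamini-Hochberg adjustment over 4499 genes, against 0.156% of all pairs of class and gene. At an unadjusted p under 0.05 there were 13 pairs (13.7%), against 8.56% over all genes. The mean of DSE2 ran from 1.15 ± 1.36 (SD, n = 18) in small subunit ribosomal protein deletions to -0.86 ± 1.20 (SD, n = 6) in Mediator deletions, beside 0.42 ± 1.09 in the other deletions. CTS1 had the same classes at its ends, with 0.89 ± 1.03 and -0.43 ± 0.76, beside 0.29 ± 0.77 in other deletions. DSE1 ran from 0.46 ± 0.36 in SWR1 and NuA4 deletions (n = 5) to -0.47 ± 0.80 in Mediator deletions (n = 6), EGT2 from 0.43 ± 0.24 in vacuolar and endosomal sorting deletions (n = 11) to -0.52 ± 0.80 in SAGA deletions (n = 3), and SCW11 from 0.19 ± 0.35 in nuclear pore and mRNA export deletions (n = 6) to -0.98 ± 0.39 in H3K56 acetylation pathway deletions (n = 3). Relative to library group medians the ends were others in part. DSE1 was then highest in Rpd3L and Set3 deletions (0.40, with 0.11 in SWR1 and NuA4 deletions). It was lowest in SAGA deletions (-0.35, n = 2, with -0.17 in Mediator deletions). That SAGA mean rests on SGF29 at -1.05 and SGF73 at 0.36, since DSE1 was missing in SPT3. The lowest class of CTS1 and DSE2 was then the H3K56 acetylation pathway (-0.43 and -0.78), ahead of Mediator (-0.39 and -0.67), of whose 6 strains 4 lay in library group D. The end classes of EGT2 and SCW11 were the same. The low SAGA mean of EGT2 rests mostly on SPT3, at -1.67 from its library group median. SGF29 was at -0.24 and SGF73 at 0.21. Neighbouring classes in each order of deposited means were closer than the smaller of their SDs, save Mediator and nuclear pore deletions for DSE2.

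The lowest adjusted p was that of CTS1 in the 18 small subunit deletions. They had a lowest value of -0.71, a median of 0.89 and a highest of 2.53, against -1.50, 0.19 and 2.41 in the other deletions, so the ranges overlapped. The difference was 0.60 ± 0.19 (SE, limma adjusted p = 0.0748). Of these 18 strains 9 lay in library group C. With library groups as the term it was 0.27 ± 0.11 (adjusted p = 0.161), and when only the 2142 genes with a value in every strain were tested the adjusted p was 0.0484 (background 1.17% higher).

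DSE2 in the 6 Mediator deletions was at -2.38 in SRB8, -0.90 in SSN2, -0.90 in SOH1, -0.87 in SRB2, 1.29 in SIN4 and -1.40 in CSE2. All 6 were below the medians of their library groups, with differences from -0.09 in SRB2 to -2.39 in SRB8. The difference from the other deletions was -1.32 ± 0.46 (limma adjusted p = 0.394), and -0.72 ± 0.19 with library groups as the term (adjusted p = 0.0821). Mediator carries signals from activators to RNA polymerase II, and SRB8 and SSN2 are subunits of its kinase module.

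The H3K56 acetylation pathway marks newly made histone H3, with Asf1 as the chaperone and Rtt109 as the enzyme. DSE2 in its 4 strains was at -2.26 in ASF1, -1.24 in RTT109, 2.26 in RTT106 and 1.62 in MMS1, against a mean of 0.42 ± 1.09 (SD) in the other deletions. ASF1 lay in group B, RTT109 in D and the remaining strains in C, and relative to the group medians the values were -2.60, -0.45, 0.29 and -0.35. The difference was -0.45 ± 0.57 (limma adjusted p = 0.830). With library groups as the term it was -0.82 ± 0.23 (adjusted p = 0.0210), the only one of the 95 pairs to pass, against 0.379% of all pairs and 2.76% of genes lower in this class. Without the ASF1 strain it was -0.24 (adjusted p = 0.999), and 0.28 with the table as the term. SCW11 was at -1.40 in RTT109, -0.63 in RTT106 and -0.91 in MMS1 and missing in ASF1, below the group median in all 3 (difference -0.60 ± 0.23 with library groups, adjusted p = 0.106).

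In the same fit with library groups, list genes that passed in the H3K56 class were AMN1 (-0.55, adjusted p = 0.0462) and PCL9 (-0.68, adjusted p = 0.0303) of 14 other M/G1 genes by limma, and BGL2, a wall glucanosyltransferase (-0.45), and FKS1 (0.45) of 12 septum and wall genes. HTA1 (-0.50) and HTB2 (-0.46), of 8 histone genes, and MCM6 (-0.60), of 7 replication origin genes, also passed. Over all 4499 genes 2.76% were lower and 1.02% higher in this class. None of 9 mitotic, 9 G1/S, 6 a-cell or 6 haploid genes passed. Whether the list genes that passed rest on the ASF1 strain, as DSE2 does, was not tested.

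SCW11 in the 6 nuclear pore and mRNA export deletions was at 0.64 in SAC3, 0.04 in APQ12, 0.07 in MLP2, 0.20 in NUP120, -0.33 in NUP133 and 0.53 in THP1, above the library group median in all 6. The difference was 0.44 ± 0.18 (limma adjusted p = 0.202) and 0.55 ± 0.16 with library groups (adjusted p = 0.194). SAC3 and THP1, at the top, encode subunits of one mRNA export complex. In the 6 replication fork deletions the difference of EGT2 was -0.52 ± 0.17 (limma adjusted p = 0.253), and -0.34 ± 0.16 with library groups (adjusted p = 0.998). The 6 include TOP3 and YLR235C, numbered side by side and both in library group C. Of these 6 strains 4 lay in library group C, and DSE2 differed by 0.79 ± 0.47 with the table as a term (limma adjusted p = 0.472) but by -0.36 ± 0.19 with library groups (adjusted p = 0.998), likewise CTS1 by 0.40 ± 0.33 and -0.32 ± 0.18.

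**Figure D5:**
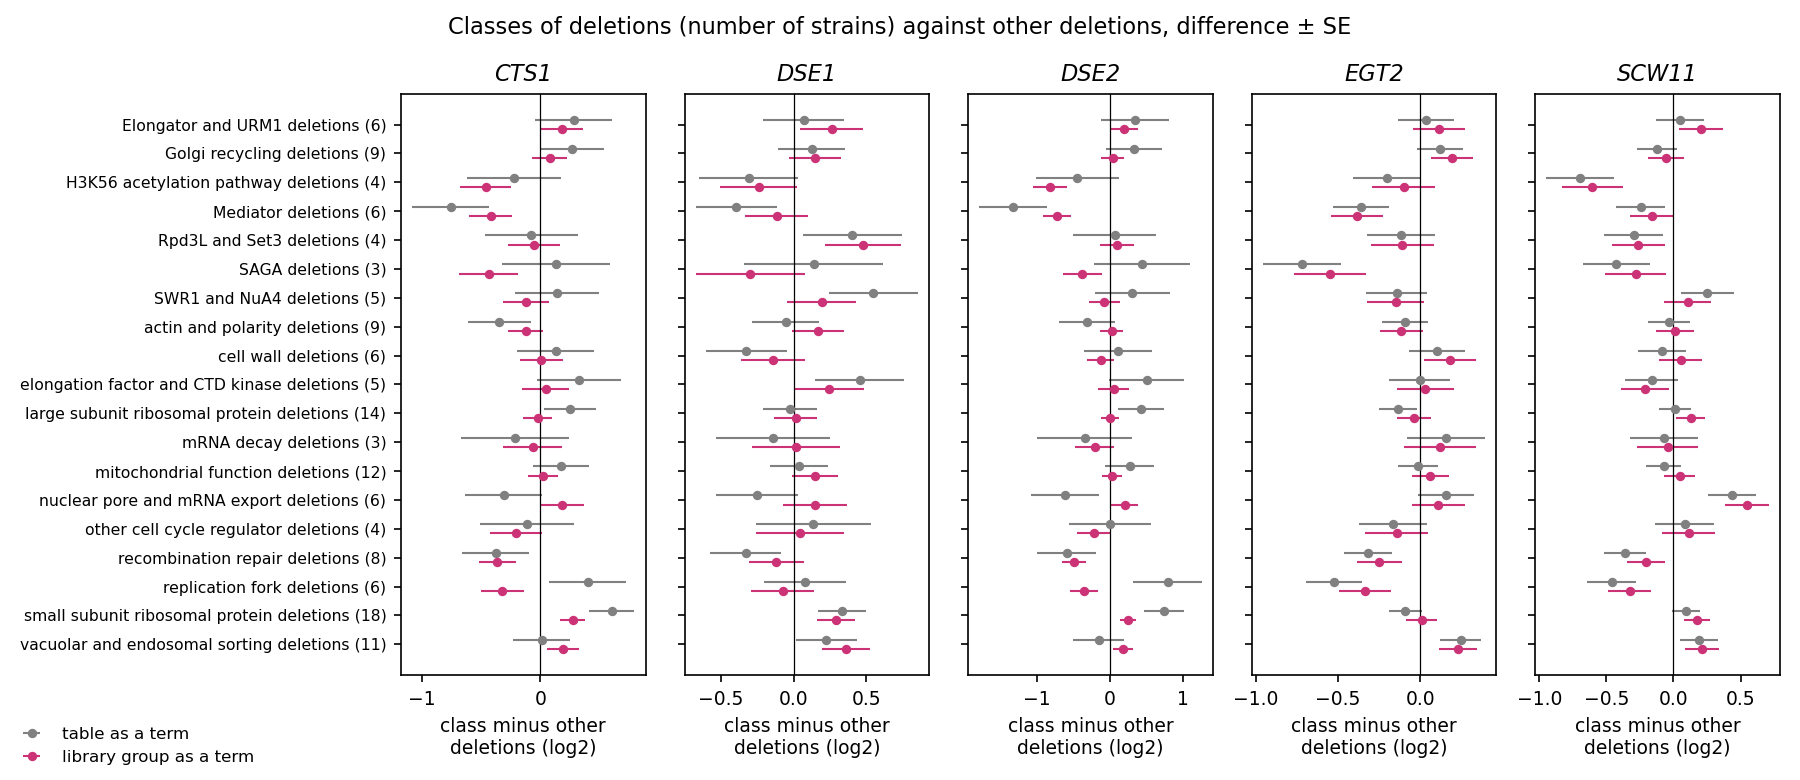
Difference of each class from the other deletions (log2, x axis, point ± SE from limma) for the 5 genes, with the number of strains in brackets; grey points are from the fit with the table as a term and pink points from that with library groups. The grey and pink points differ most for CTS1 and DSE2, where replication fork deletions change sign.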

How the data were processed

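PolyA RNA of 328 deletion strains was sequenced, 1 library per strain. The authors deposited log2 ratios to the wild type strain, 255 strains in one table and 73 in another. No file states the base of the logarithm. Base 2 was inferred from whole chromosomes raised by up to 0.916, more than a doubling gives in natural (0.693) or decimal (0.301) logarithms. Bowtie is the tool named in the submitters' processing notes; its version, the build, the counting, any use of strand and the normalization were not given in the sources used here. Depth is unknown. Rows of the second table were matched to the first by position (gene means r 0.979, against at most 0.046 when shifted by up to 5 rows). Empty cells stayed missing.

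The members, lists and comparisons were chosen with earlier results of these data known. Genes present in 80% of strains or more entered 1 limma fit (limma 3.58.1, R 4.3.3, lmFit and eBayes). They numbered 4499, of which 4420 matched the RefSeq R64 annotation that gave coordinates. The fit set 19 classes against other deletions with the table as a term. It was tested on simulated data, shifts added to strains drawn at random from the other deletions. These draws did not copy the uneven spread of the classes over library groups. Strains came from no stated separate cultures, so p-values measure the spread between these libraries. A strain with 1 library was compared with the median of the other strains of its table, with a difference of 1 as the threshold and no test. Library groups came from a Gaussian mixture (4 components, 4 principal components of 2138 genes, 10 starts, scikit-learn 1.9.0); they took 38.7% of the variance. Named were all members, up to 4 list genes per strain past 1, list genes passing in a class where a member passed, the 3 nearest genes per member and 10 for their mean, the 5 strains at each end, deletions within 5 reading frames, and DSE4. Neighbours missing from the annotation were taken by row. CBK1, NDD1, CLB2 and CLB6 were not analysed here, and 1 further gene is not reported here. Other settings are given in the closing section. No pseudocount was added.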

Additional observations from a re-analysis of the deposited data

Results flagged for a closer look

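SCW11 stood apart in the ELP6 strain. Among the 6 Elongator and URM1 deletions it was at -1.41 in ELP6, while the other strains lay between -0.25 and 0.25, and the gap of ELP6 to its nearest neighbour was 0.70 of the whole range. In the same strain, in library group D, DSE1 was at -1.79, DSE2 at -1.52, CTS1 at -1.09 and EGT2 at -0.70, all at least 0.5 below the medians of the group. A total of 64 pairs of gene and class with 4 to 10 strains were looked at in this way. Among independent pairs chance flags about 1 in 20. SCW11 in ELP6 was the only pair flagged. The pairs share strains and the classes mix library groups, so that rate may not hold here.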

How the results depend on the processing

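Depth is unknown, each strain has 1 library, and the library groups were found from the values. The count of 0 pairs of class and gene became 1 with library groups as the term, 1 with 5 library groups, 1 with library groups and each strain centred on its median (DSE2 in H3K56 acetylation pathway deletions in all 3, at -0.82, -0.73 and -0.83) and 1 with only genes that have a value in every strain (CTS1 in small subunit deletions). The other 34 settings kept it at 0, among them the 28 fits with the table as the term that left out 1 strain of a class of up to 5. Each of these 28 fits tested only the class that lost a strain, not all pairs of class and gene. Leaving out a strain of the H3K56 class with the table as the term gave DSE2 differences between -1.09 and 0.28, the value without ASF1 being 0.28. With library groups as the term these differences lay between -1.17 and -0.24, the value without ASF1 being -0.24. In the SWI5 strain the excess of CTS1 was 0.88 against library groups and 0.155 against 5 library groups, and that of DSE2 0.99 and 0.41. DSE1 turned to -0.27 and -0.72 there, and SCW11 to -0.0821 with 5 groups. DSE2 in the library labelled ELM1 turned to 0.11 with 4 or 5 library groups. The median r of the 10 pairs was 0.40 with each strain centred, 0.40 with library group means subtracted and 0.43 with both. The r of CTS1 and EGT2 became 0.17 when strains were centred, 0.54 with library groups, 0.0232 in the first table only, 0.54 with 5 groups and 0.56 with library groups and centring. That of DSE2 and EGT2 became 0.0794 when strains were centred, 0.46 with library groups, 0.44 with 5 groups and 0.49 with library groups and centring. The cause of these changes was not tested. The 5 groups, centring together with library groups, and likeness and extremes by library group were chosen after seeing the data. No paired analysis was possible because replicate numbers only name the strains of a class.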
